A study of Mus musculus with 8 samples.

Results

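Oxidative phosphorylation is carried out by complexes I to V of the mitochondrial inner membrane, and the messenger RNAs of their nuclear-encoded subunits were followed in mouse liver. Genes were taken by symbol (Nduf followed by a, b, c, s or v and a digit, Sdha to Sdhd, Uqcr, Cox4 to Cox8, and Atp5), with no use of a measured change. Of 23699 loci in the series, 85 matched by symbol and 79 of these also had an FPKM (fragments mapped to a gene, scaled to its transcript length and to the mapped fragments of the library) of at least 1 in at least 2 libraries: 36 of complex I, 4 of complex II, 8 of complex III, 14 of complex IV and 17 of complex V. The 6 that did not reach that level were Ndufa4l2, Cox4i2, Cox6a2, Cox7b2, Cox8b and Cox8c. Just outside the limit was Ndufa4l2, with 1.04 FPKM in its highest and 0.995 FPKM in its next library, while no member lay just inside: the nearest, Atp5s and Cox4nb, were above 1 FPKM in all 8 libraries, with at most 5.74 and 4.76 FPKM. Some genes caught by symbol are not subunits of the complex they are counted with: Cox4nb is a subunit of a membrane protein insertion complex of the endoplasmic reticulum, Atp5sl is an assembly factor of complex I, and Ndufa4 is now assigned to complex IV.

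Polyadenylated RNA had been sequenced from livers of male C57/BL6 mice at 8 weeks of age, in 4 groups of 2 libraries. The groups were re-fed LMKO mice (liver-specific Med23 knockout, fasted for 24 h and then re-fed for 24 h), re-fed control mice, fasted LMKO mice (fasted for 24 h) and fasted control mice. The labels give neither the Cre driver, nor the deleted exons, nor the alleles of the controls. The deleted gene belongs to Mediator, which links transcription factors to RNA polymerase II. Med23 stood at 1.61 and 1.74 FPKM in re-fed LMKO livers, against 2.86 and 2.33 FPKM in re-fed control livers, and at 2.35 and 2.18 FPKM in fasted LMKO livers, against 2.86 and 2.93 FPKM in fasted control livers, so it was lower in both LMKO groups with no overlap, but not absent. Of 9 hepatocyte markers 8 were high in every library (Apoa1 between 4586 and 9851 FPKM), while Alb was listed at 0 in all 8, which can be a failed estimate. The deposited names carry a number that differs between re-fed and fasted livers, so whatever it marks cannot be told apart from feeding. In bulk liver, fewer cells of a type and less RNA per cell cannot be told apart.

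Complex I oxidises NADH and complex II oxidises succinate; both pass electrons through ubiquinone to complex III and from there, by cytochrome c, to complex IV, which reduces oxygen. The proton gradient built by complexes I, III and IV drives ATP synthesis by complex V. In the liver this system supplies the ATP for gluconeogenesis and takes up the electrons from fatty acid oxidation in fasting, and most subunits are encoded in the nucleus, with a few core subunits in mitochondrial DNA. Transcripts of mitochondrial DNA had no locus among the files and were not analysed here.

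Promoters are shown first because NRF1, GABPA (an ETS factor) and YY1 are textbook regulators of these genes. RefSeq gave a promoter window, 250 bases before to 50 bases after the start, for 67 of the 79 genes (build GRCm38.p6). The letters GCATGCGC of the NRF1 motif, searched on both strands, were in the windows of 10 of 67 genes (14.9%), against 3.05% of all 27025 genes with a window and 6.22% of the tested genes. The YY1 letters AAGATGGC were in 16.4% of the members' windows, against 3.19% of all and 5.67% of the tested genes, and sat in 7 windows of complex I and 4 of complex V. The ETS letters CCGGAAG were in 23.9%, against 9.93% of all and 21.1% of the tested genes, and their longer form CCGGAAGT in 7.46%, against 4.31% of all and 9.82% of the tested genes. TCAAGGTCA, the ERRA letters, were in 2.99%, against 0.466% of all and 0.314% of the tested genes. The CREB letters TGACGTCA were in 5.97%, against 2.03% and 3.6%, and TATAAA was in 7.46%, against 15.7% of all and 9.14% of the tested genes. Such a match is a description of the letters in a window, not a binding site. For each complex, the window shown is that of the gene with the smallest p on re-feeding in LMKO livers among those holding the NRF1 or the YY1 letters. Capitals mark matches to any of these motifs on either strand, and overlapping matches run together. Coordinates are those of the window.
Ndufa11, complex I, chr17:56717512-56717811, plus strand: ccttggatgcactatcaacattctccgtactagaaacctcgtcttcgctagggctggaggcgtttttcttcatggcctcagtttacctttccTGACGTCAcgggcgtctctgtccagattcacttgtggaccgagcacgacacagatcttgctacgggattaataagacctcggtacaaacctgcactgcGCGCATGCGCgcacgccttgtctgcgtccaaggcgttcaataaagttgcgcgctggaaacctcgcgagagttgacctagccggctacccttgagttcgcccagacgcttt
Sdhb, complex II, chr4:140961021-140961320, plus strand: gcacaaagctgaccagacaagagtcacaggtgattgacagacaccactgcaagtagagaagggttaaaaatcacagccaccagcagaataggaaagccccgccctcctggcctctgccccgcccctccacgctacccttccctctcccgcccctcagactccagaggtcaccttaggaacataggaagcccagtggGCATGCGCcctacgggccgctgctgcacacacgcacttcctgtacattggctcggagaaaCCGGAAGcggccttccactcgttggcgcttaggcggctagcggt
Uqcr11, complex III, chr10:80406772-80407071, minus strand: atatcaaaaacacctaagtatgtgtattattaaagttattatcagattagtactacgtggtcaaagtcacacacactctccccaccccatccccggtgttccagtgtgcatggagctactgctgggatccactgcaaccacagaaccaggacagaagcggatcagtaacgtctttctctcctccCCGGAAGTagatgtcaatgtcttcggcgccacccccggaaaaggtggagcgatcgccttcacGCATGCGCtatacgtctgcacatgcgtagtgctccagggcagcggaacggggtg
Cox6a1, complex IV, chr5:115348909-115349208, minus strand: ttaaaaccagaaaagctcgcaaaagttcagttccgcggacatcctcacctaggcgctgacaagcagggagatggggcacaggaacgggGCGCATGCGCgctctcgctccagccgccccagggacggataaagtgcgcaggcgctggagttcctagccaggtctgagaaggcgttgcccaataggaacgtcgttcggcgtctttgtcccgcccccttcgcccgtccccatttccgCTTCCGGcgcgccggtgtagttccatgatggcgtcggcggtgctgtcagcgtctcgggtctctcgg
Atp5k, complex V, chr5:108434350-108434649, minus strand: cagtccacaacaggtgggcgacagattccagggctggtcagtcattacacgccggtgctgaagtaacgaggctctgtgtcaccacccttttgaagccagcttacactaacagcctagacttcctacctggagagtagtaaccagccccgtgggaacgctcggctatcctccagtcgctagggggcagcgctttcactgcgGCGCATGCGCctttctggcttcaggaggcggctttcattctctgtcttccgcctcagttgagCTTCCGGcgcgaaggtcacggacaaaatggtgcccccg
The NRF1 letters began 58 bases before the start in Ndufa11 (position -58), at -54 in Sdhb, at -4 in Uqcr11, at -160 in Cox6a1 and at -48 in Atp5k. In Ndufa11, Cox6a1 and Atp5k the letters occurred on both strands, shifted by 2 bases. All 5 of these genes rose on re-feeding in both genotypes, as given by complex below. They were picked by their p on re-feeding in LMKO livers, so the choice favoured a rise, and no link to the letters was tested.

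The transcripts were abundant in every library. The 79 genes together summed to 28190 and 27850 FPKM in re-fed LMKO livers, against 19420 and 22810 FPKM in re-fed control livers, and to 15930 and 15450 FPKM in fasted LMKO livers, against 14360 and 14150 FPKM in fasted control livers. They made up 4.72% and 4.80% of all FPKM in re-fed LMKO livers, 3.79% and 4.13% in re-fed control livers, 3.42% and 3.30% in fasted LMKO livers, and 3.12% and 3.12% in fasted control livers. The 4 groups therefore did not overlap in the summed level, and the order from high to low was re-fed LMKO, re-fed control, fasted LMKO, fasted control. The same order without overlap held for each of complexes I to V. For complex I the sums were 8290 ± 144 FPKM in re-fed LMKO, 6171 ± 884 FPKM in re-fed control, 4606 ± 173 FPKM in fasted LMKO and 4130 ± 52.5 FPKM in fasted control livers (mean ± SD, n = 2). The sums of the small complex II differed least, at 937 ± 29.0, 815 ± 12.9, 645 ± 1.29 and 595 ± 28.9 FPKM in the same order of groups. Averaged over all 8 libraries, the highest gene of each complex was Ndufa4 (mean 803 FPKM), Sdhb (245 FPKM), Uqcrq (440 FPKM), Cox4i1 (606 FPKM) and Atp5k (997 FPKM). Ndufa4 and Sdhb had the highest mean in each of the 4 groups, but the order within complexes III to V varied by group. In re-fed LMKO livers Uqcrh (607 FPKM) and Cox6b1 (867 FPKM) averaged above Uqcrq (572 FPKM) and Cox4i1 (851 FPKM), and in re-fed control livers Cox6a1 (613 FPKM) averaged above Cox4i1 (573 FPKM). Atp5b averaged above Atp5k in both fasted groups, at 793 against 596 FPKM in fasted LMKO and 739 against 560 FPKM in fasted control livers.

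**Figure D1:**
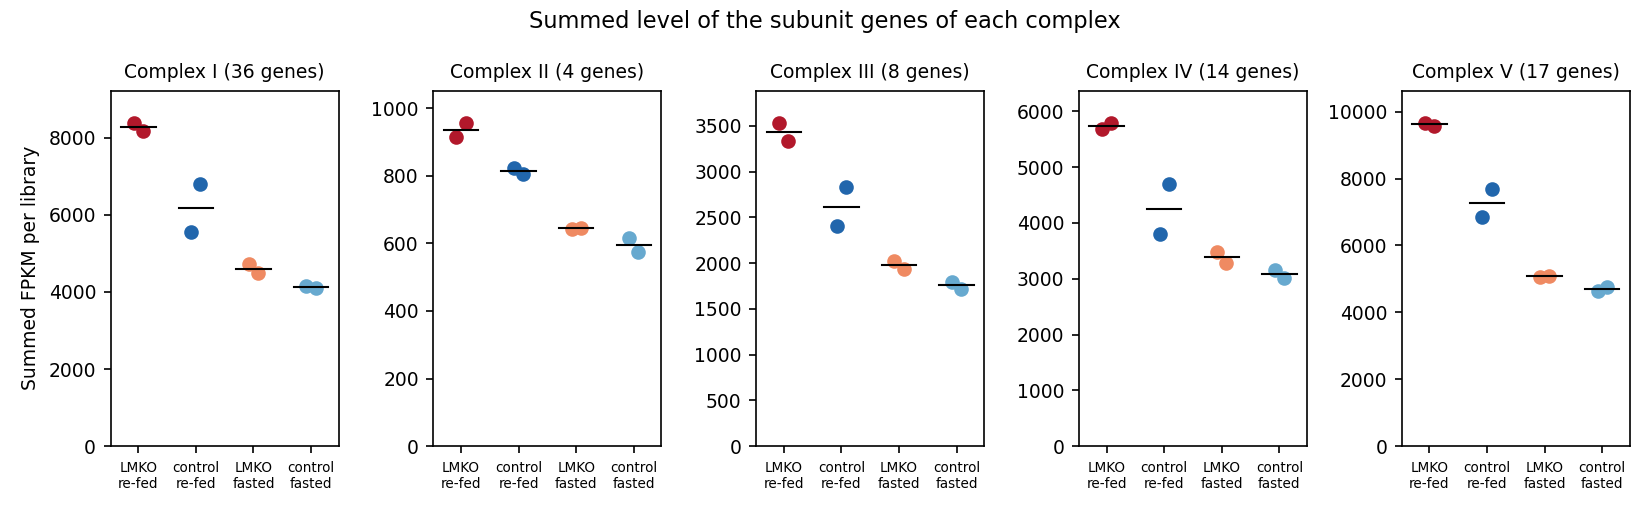
Summed FPKM of the subunit genes of each complex (y axis, from 0) in each library (points), with the group mean (line), for re-fed LMKO, re-fed control, fasted LMKO and fasted control livers. In every panel the 4 groups fall in that order without overlap; in complex I the ratio of re-fed to fasted means was 1.80 in LMKO and 1.49 in control livers.

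Re-feeding was the larger contrast: in the values as deposited, most subunit genes of every complex were higher in re-fed than in fasted livers of the same genotype. In LMKO livers 67 of 79 genes rose and 1, Atp5sl, fell at an adjusted p under 0.05, where 23.2% of all 10865 tested loci rose and 16.3% fell. In control livers 56 rose and 3 fell (Cox6b2, Ndufs5 and Atp5s), where 22.8% of tested loci rose and 10.5% fell. The median log2 fold change of the members, on the scale of log2(FPKM + 1), was 0.77 in LMKO livers, against 0.06 over all tested loci, and 0.50 in control livers, against 0.13. By ratio of means, the summed level was 1.79 times as high re-fed as fasted in LMKO livers and 1.48 times in control livers. The re-fed libraries lay above both fasted libraries for 74 of 79 genes in LMKO livers (41.5% of tested loci) and for 72 of 79 in control livers (43.9%). Markers of other liver cells moved with feeding as well. Kupffer cell and macrophage markers summed to between 31.5 and 75.8 FPKM in the 4 re-fed libraries, against 75.4 to 109 FPKM in the 4 fasted ones, sinusoidal endothelium markers to between 48.3 and 66.4, against 71.9 to 110 FPKM, and stellate cell markers to between 42.5 and 74.5, against 78.3 to 87.0 FPKM. Within these lists, the macrophage markers Cd5l, Timd4, Vsig4 and Marco and the endothelium marker Clec4g overlapped between re-fed and fasted libraries. Marco was highest in a re-fed control library, at 6.5 FPKM. Dcn made up most of the stellate cell sum, at 32.4 to 54.4 FPKM re-fed, against 66.9 to 75.9 FPKM fasted. Col3a1 of that list went the other way (2.79 to 6.77, against 0.795 to 2.26 FPKM), and Col1a1, Des and Lrat overlapped. Bile duct markers summed to between 24.2 and 30.1 FPKM in re-fed libraries, against 8.12 to 12.0 FPKM in fasted ones. Spp1 made up most of that sum (21.4 to 25.7, against 5.24 to 10.25 FPKM), and the other bile duct markers overlapped. None of these markers that had a locus was at 0 in any library, and their part in the members' values was not tested. The LMKO and control comparisons share no library, and 54 genes rose in both, 13 in LMKO alone, 2 in control alone and 10 in neither.

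The counts depended on library scaling and on transcript length, while the median over all members stayed above 0. These transcripts are short, with a median length of 718.5 bases against 2571 over the tested loci, and in these libraries short transcripts in general stood higher in re-fed livers. With each library's trend on length removed, 18 genes rose and 2 fell in LMKO livers (14.8% and 14.7% of tested loci) and 3 rose and 5 fell in control livers (12.6% and 12.9%), with medians of 0.17 and 0.05. The complex IV medians then changed sign, to -0.03 in LMKO and -0.08 in control livers. The rises left were 14 in LMKO and 2 in control livers for complex I, and 4 and 1 for complex V. Complexes II, III and IV then had 0 rises in either genotype. Quantile normalization left 27 rises and 1 fall in LMKO livers (18.5% of loci each way) and 11 rises and 5 falls in control livers (15.4% and 15.6%). Median-ratio scaling left 59 rises and 2 falls in LMKO livers (21.3% and 19.7%) and 24 rises and 4 falls in control livers (16.7% and 15.8%); it moved the median of all tested loci on re-feeding in control livers by over 0.1. Fewer members were called in each genotype when a library of the groups compared was left out. Such a fit leaves 1 library in a group, so its calls are not counted here. The median over all members then lay between 0.76 and 0.81 in LMKO livers and between 0.43 and 0.64 in control livers.

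**Figure D2:**
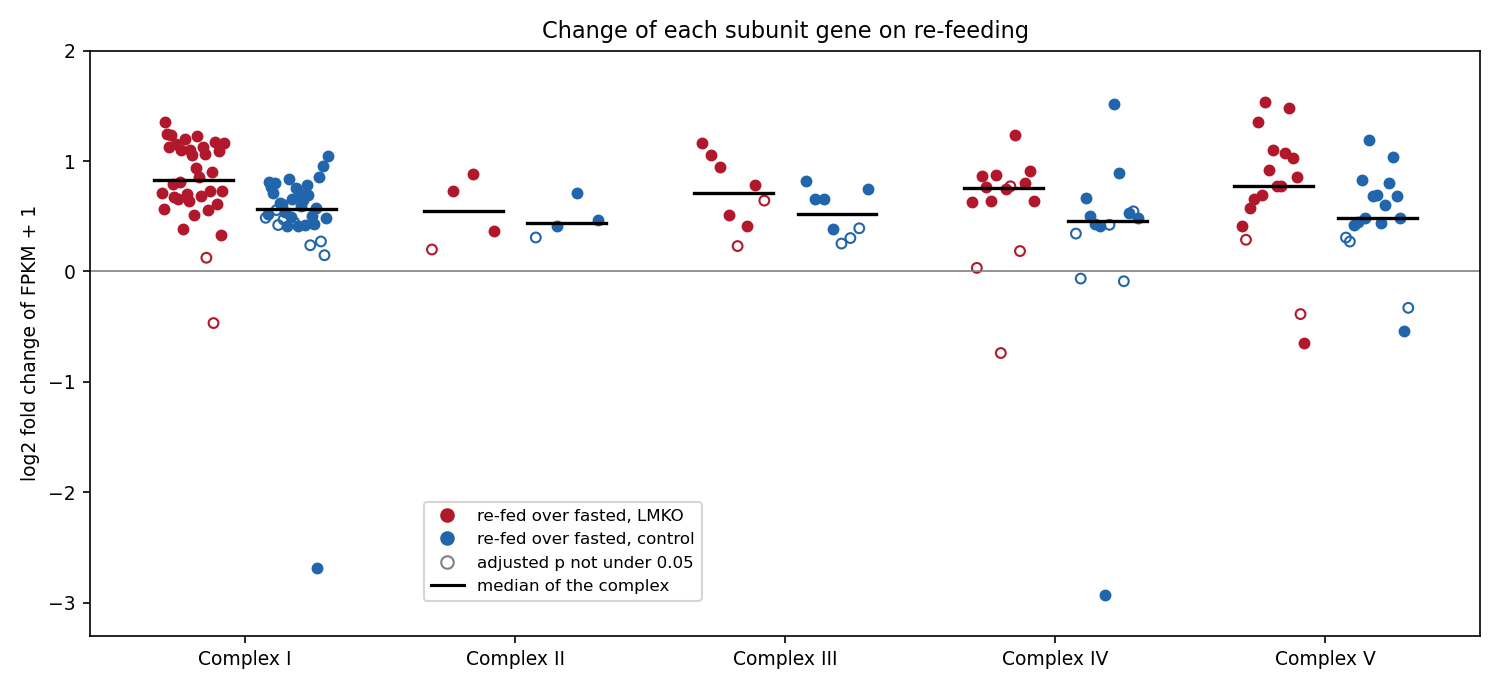
Log2 fold change of FPKM + 1 on re-feeding (y axis) for each subunit gene (points; filled where the adjusted p was under 0.05) by complex, in LMKO livers and in control livers, with the median of each complex as a line. The medians are 0.83 and 0.57 for complex I, 0.55 and 0.44 for complex II, 0.71 and 0.52 for complex III, 0.76 and 0.46 for complex IV and 0.78 and 0.48 for complex V, in LMKO and in control livers.

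Complex I has a matrix arm that oxidises NADH and carries iron-sulfur clusters, and a membrane arm that pumps protons. On re-feeding 34 of its 36 genes rose in LMKO livers and 27 rose in control livers. Ndufa12, an accessory subunit of the matrix arm, had 230 and 239 FPKM in re-fed LMKO livers, against 103 and 93.0 FPKM in fasted LMKO livers, and 152 and 163 FPKM in re-fed control livers, against 89.6 and 95.6 FPKM in fasted control livers. Both re-fed groups stood clear of both fasted groups, with log2 fold changes of 1.25 ± 0.12 (SE; adjusted p = 0.00139) in LMKO and 0.76 ± 0.12 (adjusted p = 0.00583) in control livers. Ndufa11, an accessory subunit of the membrane arm whose window is printed above, was low but moved as far, with 27.3 and 26.0 FPKM in re-fed LMKO livers, against 10.1 and 9.57 FPKM in fasted LMKO livers, and 16.5 and 20.5 FPKM in re-fed control livers, against 9.85 and 10.2 FPKM in fasted control livers. Its log2 fold changes were 1.35 ± 0.13 in LMKO and 0.81 ± 0.13 in control livers (adjusted p = 0.00145 and 0.00648). Ndufs8, a core iron-sulfur subunit next to the ubiquinone site, had 92.1 and 95.0 FPKM in re-fed LMKO livers, against 42.8 and 43.7 FPKM in fasted LMKO livers, and 72.3 and 78.8 FPKM in re-fed control livers, against 39.1 and 37.5 FPKM in fasted control livers. Together with Ndufv3, an accessory subunit of the NADH-oxidising module, and Atp5g1, it was 1 of the 3 members that rose in both genotypes also with the length trend removed.

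Other core subunits of complex I changed less than these. Ndufv1, which binds the flavin that accepts electrons from NADH, had log2 fold changes of 0.33 in LMKO (adjusted p = 0.0476) and 0.15 in control livers (adjusted p = 0.328), and Ndufs1, the largest iron-sulfur subunit, had 0.12 and 0.24 with adjusted p of 0.545 and 0.267. Ndufs3 rose in both genotypes, by 0.73 in LMKO and by 0.43 in control livers, as did Ndufv2 (0.73 and 0.49). Ndufs7 rose in LMKO livers by 0.62 (adjusted p = 0.0270), and its value in control livers was 0.27 (adjusted p = 0.248). Further large rises were mostly in accessory subunits: in LMKO livers Ndufa2, Ndufb7, Ndufb10, Ndufs6, Ndufv3, Ndufa5, Ndufc1, Ndufa13, Ndufb3, Ndufa8, Ndufb4 and Ndufc2 had log2 fold changes between 1.06 and 1.24, a range that also held the core subunit Ndufs8. Of these 12 genes, Ndufb3 did not pass in control livers, where its value was 0.45 (adjusted p = 0.0717).

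Ndufs5, an accessory subunit, was the exception in complex I, and its values came with a second locus. The locus on mm9 chr4:123389953-123395429 was listed at 4.86 and 38.4 FPKM in re-fed LMKO livers, 2.81 and 1.96 FPKM in re-fed control livers, 29.6 and 13.4 FPKM in fasted LMKO livers, and 15.7 and 27.2 FPKM in fasted control livers. On re-feeding in control livers it fell by 2.69 on the log2 scale (adjusted p = 0.0486), and replicates differed several-fold; leaving out any library other than the re-fed LMKO ones ended this call (adjusted p between 0.0629 and 0.186). The symbol BC002163 is placed both within this locus and at chr16:42955693-42956192, and the second placement had 76.7 and 35.8 FPKM in re-fed LMKO livers, 53.7 and 67.3 FPKM in re-fed control livers, 0.595 and 16.8 FPKM in fasted LMKO livers, and 14.7 and 0.330 FPKM in fasted control livers. Where Ndufs5 was low, BC002163 was high. The sums of Ndufs5 and BC002163 were 81.5 and 74.2 FPKM in re-fed LMKO livers, 56.5 and 69.3 FPKM in re-fed control livers, 30.1 and 30.2 FPKM in fasted LMKO livers, and 30.4 and 27.5 FPKM in fasted control livers, so that replicates lay close together. Tested as that sum, an alternative chosen after the values were seen, Ndufs5 rose on re-feeding by 1.34 ± 0.14 in LMKO (adjusted p = 0.00161) and by 1.09 ± 0.14 in control livers (adjusted p = 0.00339). The values of Ndufs5 alone are therefore uncertain.

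**Figure D3:**
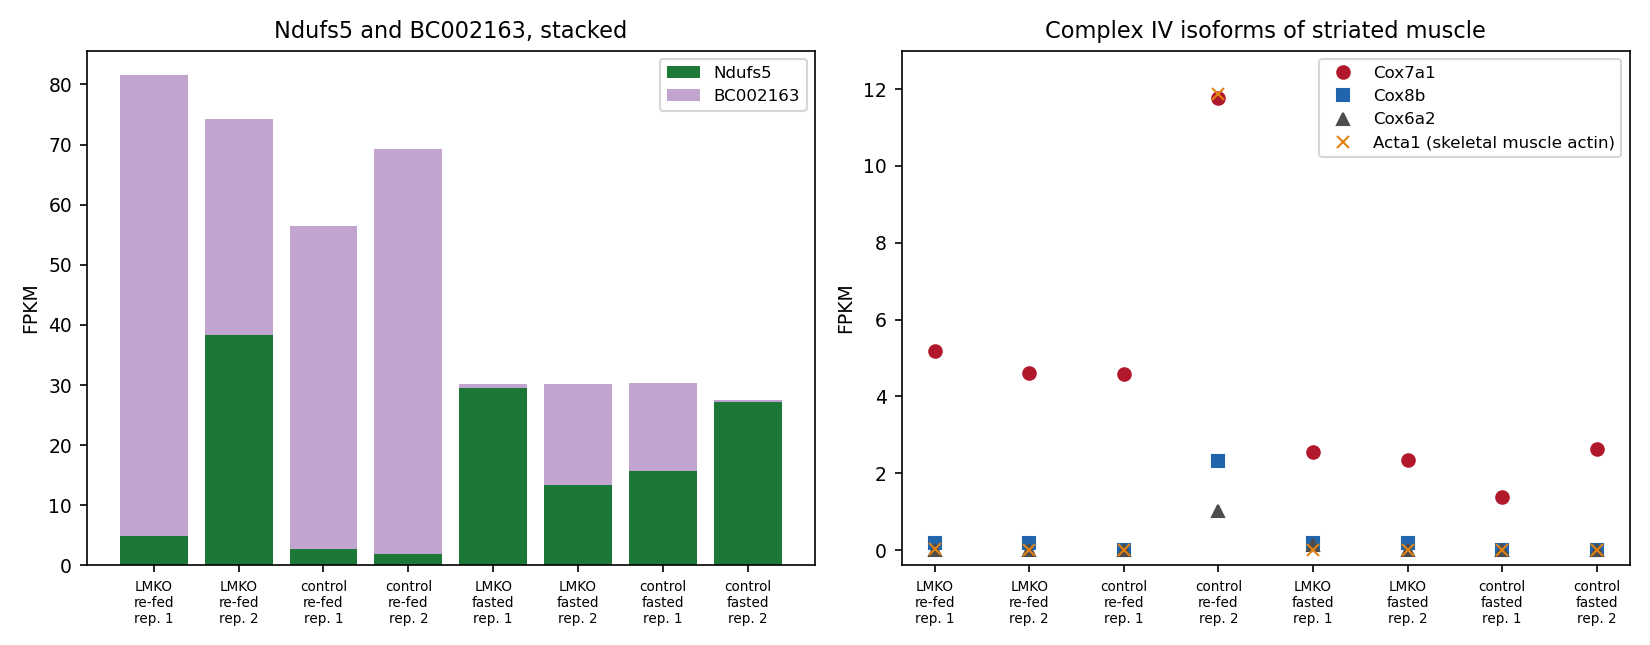
Left, FPKM of Ndufs5 with that of BC002163 stacked on it (y axis, from 0) in each library; right, FPKM of the striated muscle isoforms Cox7a1, Cox8b and Cox6a2 with the skeletal muscle actin Acta1 in each library. The stacked bars stand between 56.5 and 81.5 FPKM in the 4 re-fed libraries and between 27.5 and 30.4 FPKM in the 4 fasted libraries; Cox7a1, Cox8b, Cox6a2 and Acta1 are all highest in re-fed control replicate 2.

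Complex II, succinate dehydrogenase, is the complex shared with the tricarboxylic acid cycle. Sdhc and Sdhd anchor it in the membrane, Sdhb carries the iron-sulfur clusters and Sdha binds the flavin and succinate. Sdhc, Sdhb and Sdhd rose on re-feeding in both genotypes. Sdhc had 178 and 194 FPKM in re-fed LMKO livers, against 102 and 98.0 FPKM in fasted LMKO livers, and 152 and 161 FPKM in re-fed control livers, against 93.2 and 96.5 FPKM in fasted control livers, with log2 fold changes of 0.88 ± 0.11 and 0.72 ± 0.11 in LMKO and control livers (adjusted p = 0.00246 and 0.00608). Sdhb had 315 and 334 FPKM in re-fed LMKO livers, against 185 and 205 FPKM in fasted LMKO livers (log2 fold change 0.73, adjusted p = 0.00609), and 258 and 267 FPKM in re-fed control livers, against 212 and 185 FPKM in fasted control livers (0.41, adjusted p = 0.0465). The catalytic gene Sdha had 215 and 207 FPKM in re-fed LMKO livers, against 180 and 187 FPKM in fasted LMKO livers, and 220 and 186 FPKM in re-fed control livers, against 168 and 158 FPKM in fasted control livers. Its re-fed libraries lay above its fasted libraries in each genotype, but the changes of 0.20 and 0.31 did not pass (adjusted p = 0.246 and 0.103).

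Complex III transfers electrons from ubiquinol to cytochrome c. Of its 8 genes, 6 rose in LMKO livers and 5 in control livers. The small membrane subunit Uqcr10 had 516 and 523 FPKM in re-fed LMKO livers, against 249.5 and 214 FPKM in fasted LMKO livers (log2 fold change 1.17 ± 0.14, adjusted p = 0.00218), and 319 and 376 FPKM in re-fed control livers, against 199 and 192 FPKM in fasted control livers (0.82 ± 0.14, adjusted p = 0.00746). The other small subunits Uqcr11 and Uqcrb rose in both genotypes, by 1.06 and 0.94 in LMKO and by 0.65 and 0.65 in control livers. Uqcrh, the hinge protein beside cytochrome c1, rose by 0.79 in LMKO livers and had 0.39 in control livers (adjusted p = 0.0501). Uqcrq, another small membrane subunit, had 654 and 490 FPKM in re-fed LMKO livers, against 399 and 329 FPKM in fasted LMKO livers (0.64, adjusted p = 0.0567), and rose in control livers by 0.75 (adjusted p = 0.0409), a call lost without re-fed control replicate 2 (0.52, adjusted p = 0.178) and without each fasted library (adjusted p up to 0.164). Of the large core proteins, Uqcrc1 rose by 0.51 in LMKO and 0.38 in control livers, and Uqcrc2 had 0.23 and 0.25 and did not pass (adjusted p = 0.1498 and 0.130). Uqcrfs1, the Rieske iron-sulfur protein, rose by 0.41 in LMKO livers (adjusted p = 0.0265) and had 0.30 in control livers (adjusted p = 0.0780).

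In complex IV, cytochrome c oxidase, the nuclear subunits surround a catalytic core made in the mitochondrion. Of 14 genes, 10 rose in LMKO livers and 8 rose and 1 fell in control livers. Cox7a2, the subunit VIIa isoform found in most tissues, had 308 and 389 FPKM in re-fed LMKO livers, against 146 and 146 FPKM in fasted LMKO livers, and 174 and 205 FPKM in re-fed control livers, against 89.3 and 115 FPKM in fasted control livers. Its groups did not overlap in any of these comparisons, and the rises were 1.24 ± 0.18 and 0.89 ± 0.18 in LMKO and control livers (adjusted p = 0.00367 and 0.0129). Cox6b1, which joins the monomers of the dimeric enzyme, rose by 0.88 in LMKO livers (adjusted p = 0.00319) and 0.41 in control livers (adjusted p = 0.0408), and Cox5a by 0.86 and 0.66. Cox5b, Cox6a1, Cox7b and Cox8a also rose in both genotypes, between 0.64 and 0.80 in LMKO and between 0.43 and 0.53 in control livers. Cox4i1, Cox6c and Cox7c rose in LMKO livers by 0.63, 0.75 and 0.91, and in control livers had 0.34, 0.42 and 0.54 (adjusted p = 0.0966, 0.144 and 0.0527). Cox7a2l, which takes part in joining complexes III and IV, had 0.18 and -0.09, and Cox4nb 0.03 and -0.06, in LMKO and control livers.

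The tissue isoforms of complex IV stood far below their common counterparts. Cox4i2, the lung isoform, was at most 0.315 FPKM in any library, and Cox7b2 and Cox8c were listed at 0 throughout. The striated muscle isoform Cox7a1 had 5.17 and 4.62 FPKM in re-fed LMKO livers, 4.58 and 11.8 FPKM in re-fed control livers, 2.56 and 2.34 FPKM in fasted LMKO livers, and 1.38 and 2.63 FPKM in fasted control livers, so it was high in re-fed control replicate 2. It rose in control livers on re-feeding by 1.52 (adjusted p = 0.0245), and in LMKO livers had 0.77 (adjusted p = 0.148). Without re-fed control replicate 2 the control value was 0.92 (adjusted p = 0.0644), and leaving out fasted control replicate 1 gave 1.22 (adjusted p = 0.0963), so the call rested on these libraries. In re-fed control replicate 2 the muscle isoforms Cox8b and Cox6a2 stood at 2.31 and 1.01 FPKM, against at most 0.188 and 0.129 FPKM in the other libraries. The 8 skeletal muscle markers summed to 39.5 FPKM in that library, with Acta1 at 11.9, Tnnt3 at 9.27, Tnni2 at 6.13 and Ckm at 3.39 FPKM, and to between 0.412 and 1.24 FPKM in the other 7, where at least 4 of the 8 were listed at 0. Of 5 brown fat markers, Ucp1 was listed at 0 in every library, and Cidea and Adipoq were at most 0.0342 and 0.137 FPKM. Elovl3 and Fabp4 of that list were present in every library, between 15.6 and 342 FPKM and between 6.76 and 15.7 FPKM. The part of these markers in the muscle isoforms' values was not tested.

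Cox6b2, the testis isoform of subunit VIb, had 0.882 and 0.820 FPKM in re-fed LMKO livers, 0.798 and 8.50 FPKM in re-fed control livers, 3.17 and 1.29 FPKM in fasted LMKO livers, and 44.2 and 20.9 FPKM in fasted control livers. Both fasted control livers thus stood above all other libraries. On re-feeding in control livers it fell by 2.93 ± 0.76 (adjusted p = 0.0272). The call was lost without re-fed control replicate 1 (-1.73, adjusted p = 0.0615), without fasted control replicate 1 (-2.41, adjusted p = 0.106) and without fasted control replicate 2 (-3.45, adjusted p = 0.0580). Its log2 fold change in fasted LMKO against fasted control livers was -3.35 ± 0.76, the largest of any member there, and did not pass over all loci (adjusted p = 0.179).

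Complex V, ATP synthase, has a catalytic head in the matrix, a stalk, and a membrane ring of c subunits. Of its 17 genes, 14 rose and 1 fell in LMKO livers, and 13 rose and 1 fell in control livers. Atp5g1, Atp5g2 and Atp5g3 encode precursors of the same c subunit, and all rose in both genotypes. Atp5g1 rose most of all members in LMKO livers and had 444 and 458 FPKM in re-fed LMKO livers, against 152 and 158 FPKM in fasted LMKO livers, and 292 and 329 FPKM in re-fed control livers, against 133 and 137 FPKM in fasted control livers. Its ratio of means was 2.91 in LMKO and 2.29 in control livers, with log2 fold changes of 1.54 ± 0.12 (adjusted p = 0.000952) and 1.19 ± 0.12 (adjusted p = 0.00178). Atp5g3 was the most abundant of the 3 c subunit genes, at 1391 and 1354 FPKM in re-fed LMKO livers, against 628 and 654 FPKM in fasted LMKO livers, and 924 and 1014 FPKM in re-fed control livers, against 580 and 618 FPKM in fasted control livers. It rose by 1.098 and 0.69 and Atp5g2 by 0.92 and 0.68 in LMKO and control livers.

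Atp5k, which encodes the small membrane subunit e, had 1762 and 1573 FPKM in re-fed LMKO livers, against 600 and 591 FPKM in fasted LMKO livers, and 984 and 1349 FPKM in re-fed control livers, against 563 and 556 FPKM in fasted control livers. It rose by 1.48 ± 0.17 in LMKO and 1.04 ± 0.17 in control livers (adjusted p = 0.00207 and 0.00702). Atp5e, the epsilon subunit of the stalk, rose by 1.36 in LMKO and 0.83 in control livers. Of the head, the catalytic beta subunit gene Atp5b had 954 and 981 FPKM in re-fed LMKO livers, against 777 and 809 FPKM in fasted LMKO livers. In control livers it had 966 and 822 FPKM re-fed, against 703 and 776 FPKM fasted. The Atp5b changes of 0.29 and 0.27 did not pass (adjusted p = 0.125 and 0.156). The alpha subunit gene Atp5a1 rose by 0.41 in LMKO livers (adjusted p = 0.0363), and its value in control livers was 0.31 (adjusted p = 0.0940). The stalk and membrane genes Atp5o, Atp5f1, Atp5h, Atp5j, Atp5j2, Atp5l, Atp5c1 and Atp5d rose in both genotypes, between 0.57 and 1.08 in LMKO and between 0.42 and 0.80 in control livers. The genes that went the other way were low. Atp5sl had 8.73 and 10.5 FPKM in re-fed LMKO livers, against 15.7 and 15.5 FPKM in fasted LMKO livers (log2 fold change -0.65, adjusted p = 0.0143), and Atp5s, a coupling factor, fell in control livers by 0.54 (adjusted p = 0.0356) and had -0.39 in LMKO livers (adjusted p = 0.0839). Without any single library of the groups compared the adjusted p lay between 0.0839 and 0.124 for Atp5s, and for Atp5sl it was above 0.05 without re-fed LMKO replicate 1 or either fasted LMKO library (at most 0.0843).

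Across the members, the change on re-feeding went with transcript length. Spearman's rho between the log2 fold change and transcript length was -0.50 in LMKO and -0.46 in control livers over 79 genes, and -0.49 and -0.39 over the 10761 tested loci with a length. These are descriptions across genes, which share libraries and are not independent. For members over 500 and up to 750 bases the median change was 0.92 in LMKO and 0.65 in control livers (27 genes), against 0.71 and 0.52 over all 365 tested loci of that length. For members over 1500 and up to 2500 bases the medians were 0.46 and 0.35 (10 genes), against 0.21 and 0.23 over 2829 loci. In the class over 750 and up to 1000 bases the members' median was above that of the tested loci in LMKO livers (0.81 against 0.66) and below it in control livers (0.49 against 0.54; 12 genes, 543 loci). Among long members, Sdha, Ndufs1, Uqcrc2 and Atp5b passed in neither genotype, whereas Ndufa10, of 2020 bases, rose by 0.57 in LMKO and 0.52 in control livers (adjusted p = 0.0116 and 0.0193). Cox7a2l, of 1102 bases, passed in neither. The correlation of each locus's deviation from its mean with log2 length was -0.36 and -0.34 in re-fed LMKO libraries, -0.02 and -0.32 in re-fed control libraries, 0.25 and 0.29 in fasted LMKO libraries, and 0.27 and 0.24 in fasted control libraries, so that re-fed control replicate 1 stood apart from the other re-fed libraries.

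**Figure D4:**
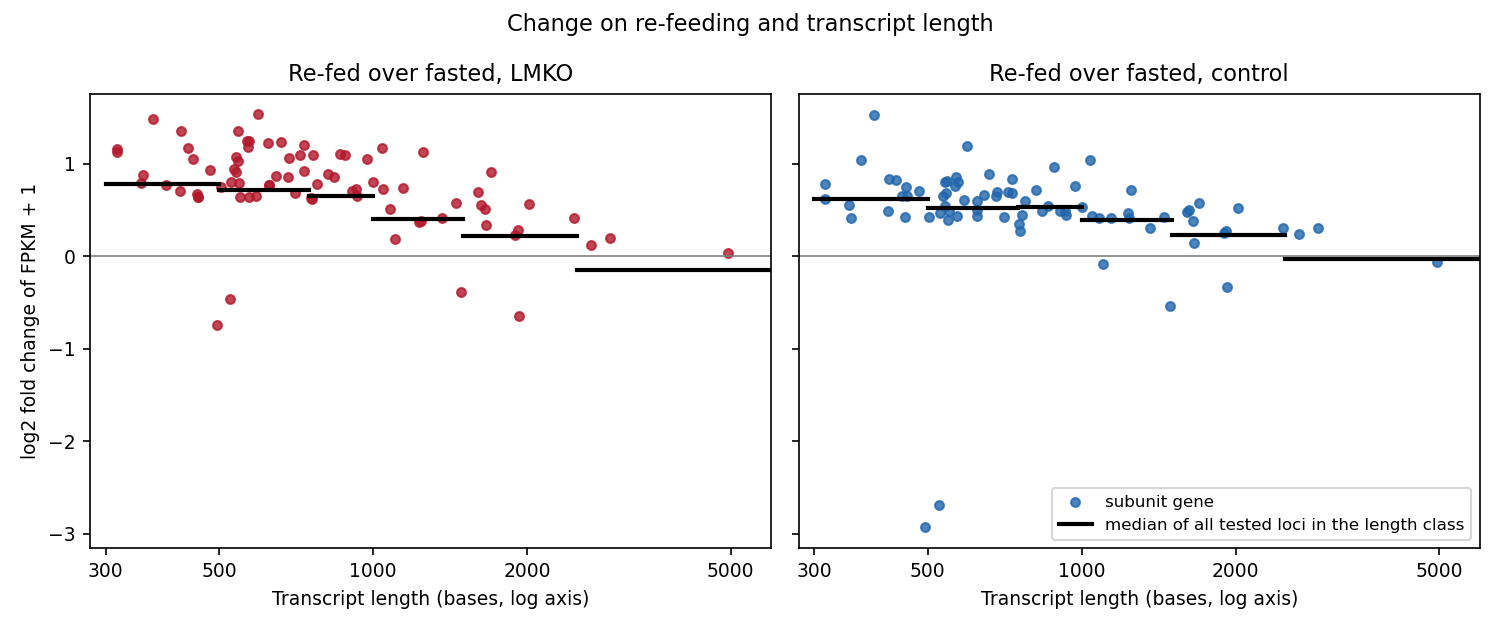
Log2 fold change of FPKM + 1 on re-feeding (y axis) against transcript length in bases (x axis, log scale) for the 79 subunit genes (points), with the median of all tested loci in each of 6 length classes (black lines), for LMKO and for control livers. Points and black lines both fall with length: the median of all tested loci up to 500 bases is 0.78 in LMKO and 0.62 in control livers, and over 2500 bases it is -0.15 and -0.03.

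Between genotypes, no member passed in either feeding state, although most values were above 0. In re-fed livers the log2 fold change of LMKO over control was above 0 for 75 of 79 genes (51.5% of tested loci), with a median of 0.39 against 0.01 over all tested loci. At an unadjusted p under 0.05, 49 were higher and 0 lower, where 7.11% of tested loci were higher and 4.57% lower, and with Benjamini-Hochberg adjustment over all loci limma called 0 members (0.0276% of loci were called higher and 0.0736% lower). Both re-fed LMKO libraries lay above both re-fed control libraries for 70 of 79 genes (25.6% of tested loci). The medians were 0.45 for complex I, 0.20 for complex II, 0.33 for complex III, 0.32 for complex IV and 0.41 for complex V. The control replicates were unequal here: without re-fed control replicate 1 the median over all members was 0.28, and without re-fed control replicate 2 it was 0.49. It was 0.16 with the length trend removed and 0.25 after quantile normalization. Kupffer cell and macrophage markers summed to 31.5 and 48.7 FPKM in re-fed LMKO livers, against 58.5 and 75.8 FPKM in re-fed control livers, though Clec4f and Marco overlapped. Stellate cell sums (42.5 and 56.3, against 57.4 and 74.5 FPKM) and bile duct sums (24.2 and 26.25, against 28.5 and 30.1 FPKM) were also lower. Sinusoidal endothelium sums overlapped. Hepatocyte and neutrophil sums were higher, with Cps1 of the hepatocyte list lower. The part of any of these markers in the members' values was not tested.

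The members with the smallest p in re-fed livers were mostly small subunits again. Cox7a2 had the values given above and a log2 fold change of 0.87 ± 0.18 in re-fed LMKO over re-fed control livers (adjusted p = 0.246). Ndufa12 had 0.57 ± 0.12 (adjusted p = 0.246) and Uqcrh 0.60 ± 0.12 (adjusted p = 0.246). Uqcrh had 599 and 616 FPKM in re-fed LMKO livers, against 370 and 433 FPKM in re-fed control livers, without overlap. Ndufb7, Uqcr10, Cox6b1, Atp5g1 and Atp5o had between 0.52 and 0.66 (adjusted p between 0.250 and 0.278), and in complex II Sdhb and Sdhc had 0.30 and 0.25 (adjusted p = 0.427 and 0.447). Ndufs1 was the longest complex I member and had -0.09 (adjusted p = 0.841).

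In fasted livers the genotypes were closer. The log2 fold change of LMKO over control was above 0 for 66 of 79 genes (64.8% of tested loci), with a median of 0.13 against 0.08 over all tested loci. That median was 0.04 with median-ratio scaling and 0.02 with the length trend removed. At an unadjusted p under 0.05, 2 members were higher (Ndufb5 and Cox7a2; 8.79% of tested loci) and 1 lower (Cox6b2; 3.56%), and limma called 0 with adjustment (0.0184% of loci were called higher and 0.147% lower). Cox7a2 had 146 and 146 FPKM in fasted LMKO livers, against 89.3 and 115 FPKM in fasted control livers (0.53 ± 0.18, adjusted p = 0.318), and Ndufb5, a membrane arm subunit of complex I, had 88.8 and 86.5 FPKM, against 74.2 and 72.6 FPKM (0.25 ± 0.10, adjusted p = 0.380). In the other complexes the 2 smallest p belonged to Sdhd and Sdha (0.26 and 0.17), Uqcr10 and Uqcrh (0.24 and 0.20), Atp5sl and Atp5g1 (0.30 and 0.20), with Ndufa6 (0.28) beside Ndufb5 in complex I, and none passed (adjusted p between 0.440 and 0.620). Over both feeding states together limma called 0 members (0.092% of loci were called higher and 0.221% lower), 45 were higher and 1 lower at an unadjusted p under 0.05 (10.8% and 4.34%), and the smallest adjusted p was that of Cox7a2, at 0.0977 with a log2 fold change of 0.70 ± 0.13.

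**Figure D5:**
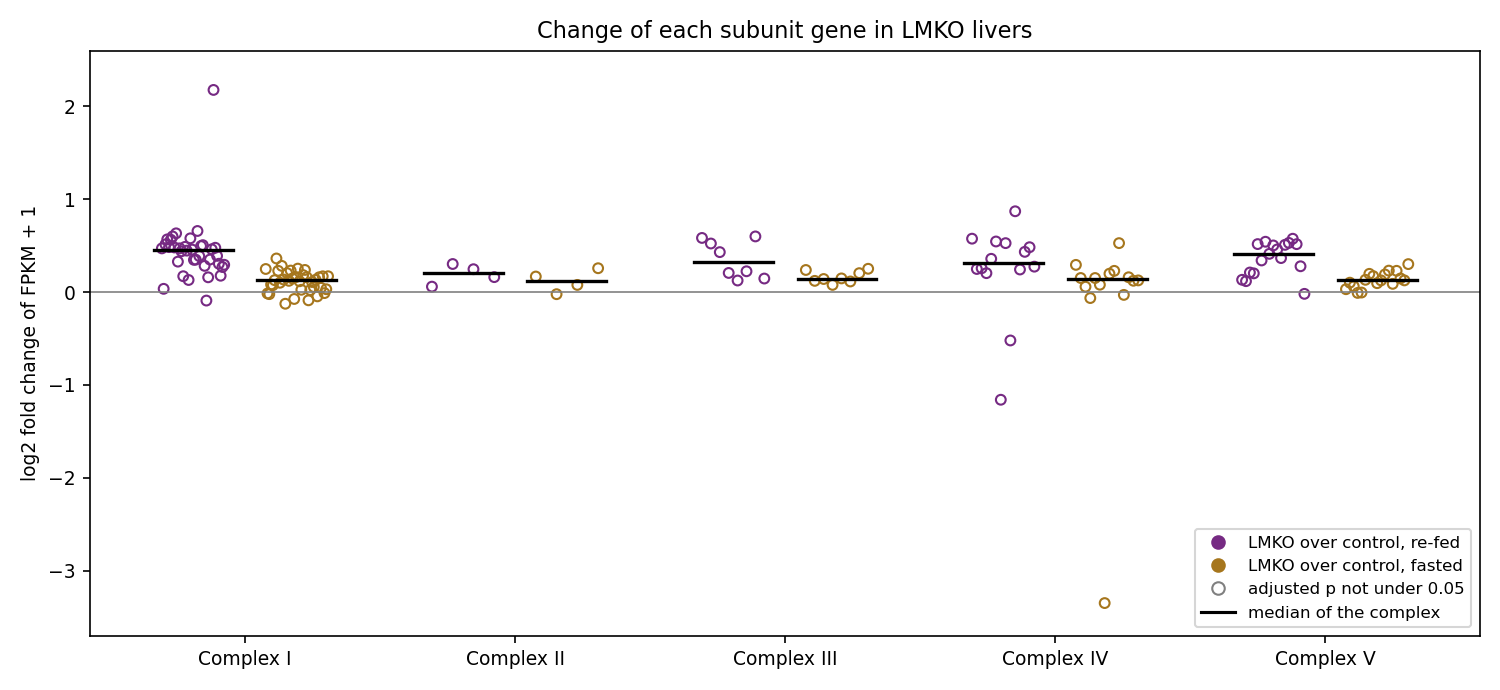
Log2 fold change of FPKM + 1 in LMKO over control livers (y axis) for each subunit gene (points, all open because no adjusted p was under 0.05) by complex, in re-fed and in fasted livers, with the median of each complex as a line. The medians lie between 0.20 and 0.45 in re-fed livers and between 0.12 and 0.14 in fasted livers; the points far from the rest are Ndufs5 at 2.18 (re-fed) and Cox6b2 at -3.35 (fasted).

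The re-feeding change was larger in LMKO than in control livers for 70 of 79 members, where the interaction was above 0 for 41.9% of tested loci. The median interaction (the LMKO change minus the control change) was 0.27 for the members, against -0.06 over all tested loci. It was 0.15 without re-fed control replicate 1, 0.40 without re-fed control replicate 2, 0.11 after quantile normalization and 0.14 with the length trend removed. In complex II it was 0.04, with 2 of 4 genes above 0. The test of the difference itself called 0 members (0.0184% of loci were called each way), with the smallest adjusted p at 0.507, shared by Ndufa11, Ndufb7, Ndufb3, Ndufa8, Ndufa12 and Cox6b1, whose interactions lay between 0.47 and 0.65. At an unadjusted p under 0.05, 7 members were above 0 (3.25% of tested loci) and 0 below (6.10%). A rise called in LMKO livers and not in control livers, as for Cox4i1 or Ndufa4, was therefore not shown to differ between genotypes.

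Other genes of the pathway, from lists of general knowledge, differed by list; over all tested loci 23.2% rose and 16.3% fell in LMKO livers, and 22.8% rose and 10.5% fell in control livers. The list of genes of or around oxidative phosphorylation outside the symbol rule also held genes that are not complex subunits, such as Etfa, Etfb and Nnt. Of its 13 tested genes, 9 rose and 1 fell in LMKO livers and 7 rose and 1 fell in control livers on re-feeding. Cyc1, cytochrome c1 of complex III, had 317 and 297 FPKM in re-fed LMKO livers, against 168 and 164 FPKM in fasted LMKO livers, and 250.1 and 248.8 FPKM in re-fed control livers, against 146 and 169 FPKM in fasted control livers (log2 fold changes 0.88 and 0.67, adjusted p = 0.00304 and 0.00913). Etfdh, which feeds electrons from fatty acid oxidation into ubiquinone, went the other way, with 112 and 118 FPKM in re-fed LMKO livers, against 244 and 224 FPKM in fasted LMKO livers, and 106 and 102 FPKM in re-fed control livers, against 232 and 231 FPKM in fasted control livers (fell by 1.02 and by 1.14, adjusted p = 0.00176 and 0.00178). Assembly factors rose for 12 of 13 genes of complex I, 4 of 4 of complex II, 3 of 6 of complex III, 11 of 19 of complex IV and 1 of 3 of complex V in LMKO livers, and for 10, 4, 2, 6 and 2 genes in control livers, with 0 falls. In the complex I list, 2310003L22Rik reached 1 FPKM in re-fed libraries only, with 0.724 to 0.869 FPKM in the fasted ones. It thus entered the test through the libraries where it was higher. Of 15 genes listed for the tricarboxylic acid cycle, 3 rose and 1 fell in LMKO livers and 4 rose and 1 fell in control livers, with medians of 0.24 and 0.16, a share of rises near that of all tested loci. The gene that fell was Pcx in both genotypes, by 0.84 in LMKO and by 1.23 in control livers. Pcx encodes pyruvate carboxylase, which is not an enzyme of the cycle itself, and no other gene of this list fell.

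Of 15 tested regulators of mitochondrial gene expression, 2 rose and 5 fell on re-feeding in LMKO livers (23.2% and 16.3% of tested loci) and 0 rose and 4 fell in control livers (22.8% and 10.5%), with medians of -0.14 and -0.19. The 2 that rose in LMKO livers were Mterfd3 (by 1.01, adjusted p = 0.0216) and Mterf (by 0.59, adjusted p = 0.0119), genes of the mitochondrial transcription termination factor family. Mterf was near the limit, with 1.07 and 1.17 FPKM in re-fed LMKO livers, against 0.353 and 0.471 FPKM in fasted LMKO livers. It reached 1 FPKM in re-fed libraries only, so it entered the test through the libraries where it was higher. Ppargc1a, the coactivator that drives mitochondrial genes in fasting liver, had 1.26 and 1.499 FPKM in re-fed LMKO livers, against 3.14 and 3.402 FPKM in fasted LMKO livers, and 1.79 and 1.84 FPKM in re-fed control livers, against 6.66 and 6.64 FPKM in fasted control livers. It was highest in fasted control livers, and fell on re-feeding by 0.84 in LMKO and by 1.44 in control livers (adjusted p = 0.00248 and 0.00105). In fasted LMKO against fasted control livers its log2 fold change was -0.84 ± 0.11 (adjusted p = 0.0540). Gabpa and Yy1, whose motifs were counted above, fell on re-feeding in both genotypes, by 0.76 and 0.68 in LMKO and by 0.50 and 0.36 in control livers, and Nrf1 fell in LMKO livers by 0.54 (adjusted p = 0.0375) and had -0.30 in control livers (adjusted p = 0.197). Tfam, which maintains mitochondrial DNA, stood between 10.4 and 12.99 FPKM in all 8 libraries. No list of assembly factors, cycle enzymes or regulators had a member called between genotypes in either feeding state. The values of all these listed genes were taken without removal of the length trend. The part of transcript length in their rises and falls was not tested.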

How the data were processed

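Each library came as a list of loci with a position, a symbol and an FPKM value, as the authors deposited it. The tools named in the submitters' processing notes were TopHat 1.4.1, SAMtools 1.4.1, Cufflinks 2.0.2 and Cuffdiff 2.0.2 on build mm9. How libraries were scaled to each other is not stated in those notes. Sequencing depth is unknown: low values of the same locus (2090 loci between 0 and 0.5 FPKM in every library) gathered at ratios between 0.959 and 1.12 to re-fed LMKO replicate 1, but only 5.36% to 8.52% of them lay within 0.005 (log2) of that ratio, and no interval or floor was computed.

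Library sums lay between 453700 and 597700 FPKM, and no rescaling was applied. Loci reaching 1 FPKM in 2 or more libraries (10865) entered a linear model of log2(FPKM + 1) fitted by limma (version 3.58.1; R 4.3.3), with 4 group means, eBayes with a trend (4 residual and 2.74 prior degrees of freedom), two-sided p-values and Benjamini-Hochberg adjustment over all of them; a fold change on this scale understates the change of low genes. The labels do not say whether the 2 libraries of a group came from separate animals, so p-values measure only the spread between these samples. Tables and figures were made with Python 3.11.15, pandas 2.3.3 and matplotlib 3.10.9. The test was checked on simulated data. Transcript lengths are medians over GENCODE M21 transcripts of the same symbol whose span fits the deposited locus (tolerance 100 bases), and starts are printed 1 higher than deposited, on mm9.

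Named with values were members called in a comparison, the 2 smallest p of each complex in each pairwise comparison, the highest gene of each complex, isoform sets, core subunits and symbols that are not subunits; called members not described in full are given by name and range or in the counts, and some single values are not reported here. The members and the gene lists were chosen with earlier results of these data known. Of 14 listed genes of or around oxidative phosphorylation outside the rule, 13 were tested, and 1 of 7 complex III assembly factors had no locus. Member loci that overlap another locus, such as Atp5j with Gabpa and Atp5b with Mir677, may share reads. Alternatives were pseudocounts of 0.1 and 0.5, no filter or a minimum of 5 FPKM, median-ratio and quantile scaling, eBayes without trend or robust, only the libraries compared, a replicate block, summed loci, removal of each library's length trend (loess, span 0.5) and leaving out each library.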

Additional observations from a re-analysis of the deposited data

Results flagged for a closer look

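Ndufc2, a membrane arm subunit of complex I, had log2 fold changes of opposite sign in the 2 feeding states, and was called in neither. The genotypes did not overlap, but in fasted livers they nearly tied. In re-fed livers it had 128 and 114 FPKM in LMKO, against 95.0 and 103.5 FPKM in control livers (log2 fold change 0.283). In fasted livers it had 58.18 and 56.64 FPKM in LMKO, against 64.05 and 58.24 FPKM in control livers (log2 fold change -0.0879). The limma test of the difference between the states did not pass (interaction 0.37, adjusted p = 0.564).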

How the results depend on the processing

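P-values over 2 libraries a group rest mostly on a spread shared by all groups, and depth was not known. Among the 6 comparisons, 0 members were called between genotypes or in the interaction under any alternative except no filter on low values, which called 1 in re-fed livers and 1 over both states. Re-feeding calls (higher or lower) were 68 in LMKO and 59 in control livers. The control count was 31 with no filter, 28 with median-ratio scaling, 16 with quantile normalization, 18 with only the libraries compared and 8 with the length trend removed; the LMKO count was 28 with quantile normalization and 20 with the length trend removed. Leaving out each library gave 44 to 68 calls in LMKO and 20 to 51 in control livers, and 0 to 0 in the other comparisons.

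Median log2 fold changes over all members kept their sign under all alternatives. With median-ratio scaling, quantile normalization and the length trend removed they were 0.71, 0.26 and 0.17 for re-feeding in LMKO livers, 0.35, 0.13 and 0.05 for re-feeding in control livers, 0.04, 0.10 and 0.02 for LMKO over control in fasted livers, and 0.35, 0.11 and 0.14 for the interaction. With quantile normalization and the length trend removed they were 0.25 and 0.16 for LMKO over control in re-fed livers and 0.17 and 0.09 over both states. Over the left-out libraries they ranged from 0.76 to 0.81 (re-feeding, LMKO), 0.43 to 0.64 (re-feeding, control), 0.11 to 0.16 (genotype, fasted), 0.28 to 0.49 (genotype, re-fed), 0.20 to 0.32 (genotype, both states) and 0.15 to 0.40 (interaction). Of 640 further values for single members and complexes, 517 held, 84 moved, 38 lost their call and 1 called value reversed: Cox6b1 on re-feeding in LMKO livers, at -0.06 with the length trend removed. The complex IV medians on re-feeding, which have no test, changed sign with that trend removed, to -0.03 in LMKO and -0.08 in control livers.

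With the replicate block, 62 members were called on re-feeding in LMKO and 43 in control livers. Of all 10865 tested loci, 2230 then rose and 1574 fell in LMKO livers, and 2065 rose and 902 fell in control livers. The replicate numbers did not pair the libraries: correlations of same-numbered deviations lay between -0.08 and -0.01.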
